A study of Mus musculus with 72 samples.

Results

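The 28 genes described here belong to cholesterol synthesis with its isoprenoid branch, to its control by the transcription factor SREBP2, or to sterol handling. They were chosen by symbol for their known function, with earlier results of these data known. All 28 were found among the 55416 genes of the count table. Each passed the filter on low counts in every tissue. They comprise 7 genes of the mevalonate steps (Acat2, Hmgcs1, Mvk, Pmvk, Mvd, Idi1 and Fdps), 1 of the isoprenoid branch (Ggps1) and 11 of the squalene and sterol steps (Fdft1, Sqle, Lss, Cyp51, Tm7sf2, Msmo1, Nsdhl, Hsd17b7, Ebp, Sc5d and Dhcr7). A further 6 encode SREBP2 and the proteins that process or retain it (Srebf2, Scap, Insig1, Insig2, Mbtps1 and Mbtps2), and 3 act in sterol handling (Stard4, Mylip and Soat1).

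RNA-seq was performed on pituitary, epididymal white adipose tissue (eWAT) and liver of 24 adult male FVB.129P2 mice. Their dams either ate freely (FED) or, from E15 until the pups were weaned on postnatal day 21, received 20% less food than a paired FED dam (CR20). At 8 weeks of age the male offspring were moved to a purified diet with 10% fat (CTRL) or 45% fat (HFD), which they ate for 10 weeks. The 4 groups (FED-CTRL, FED-HFD, CR20-CTRL and CR20-HFD) held 6 mice each. The comparisons address whether early calorie restriction of the dam altered the response of the adult offspring to HFD. No mouse could be assigned to a litter from its label, so the spread between litters and the spread between mice cannot be told apart.

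Cells build cholesterol from acetyl-CoA through mevalonate, farnesyl diphosphate, squalene and lanosterol, and the liver is a main site of this synthesis. When sterols in the endoplasmic reticulum are low, SCAP escorts SREBP2 to the Golgi, where the site-1 and site-2 proteases release the fragment that enters the nucleus and drives transcription of most genes of the pathway. When sterols are high, the INSIG proteins hold SCAP and SREBP2 back, and surplus cholesterol is esterified or exported.

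Total counts ranged from 9842813 to 27601208 per library. Hepatocyte markers summed to at least 74633 CPM (counts scaled to the library size) in each liver library, and adipocyte markers to at least 15156 CPM in each eWAT library. Anterior pituitary markers summed to at least 232493 CPM in each pituitary library. The labelled tissues therefore carried their defining markers. The eWAT libraries of FED-HFD mouse 23 and CR20-CTRL mouse 5 (16955 CPM) were the lowest in adipocyte markers. Epididymis markers were near 0 in eWAT apart from CR20-CTRL mouse 4 (135 CPM), CR20-CTRL mouse 5 (52.9 CPM) and CR20-HFD mouse 6 (26.8 CPM). Each mouse is named by its animal number. The 28 genes took 0.173–0.446% of the counts in liver, 0.124–0.212% in eWAT and 0.114–0.163% in pituitary. In bulk tissue, fewer cells of a type and less RNA per cell cannot be told apart.

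To show what the promoters of these genes have in common, the 250 bases before each annotated start (GRCm39, GENCODE M39) were searched on both strands for TCACNCCAC (a form of the sterol regulatory element that SREBPs bind), CCAAT (the box bound by NF-Y) and GGGCGG (the box bound by Sp1). CCAAT was present in 20 of the 28 windows (71.4%, against 36.5% of 21627 protein-coding promoters) and GGGCGG in 17 of 28 (60.7% against 36.4%). TCACNCCAC was present in 1 of 28 (3.57% against 1.12%), that of Hmgcs1. Exon bases were left in for these counts, in the 28 windows and in the background. The windows of Idi1, Fdft1, Tm7sf2, Nsdhl and Dhcr7 lie wholly inside protein-coding exons, and others do in part. No motif contains another, and a match is a description of letters and not a site. The stretches of 4 promoters are printed because their genes recur in the results: Hmgcs1 as the reference gene for co-variation, Sqle as a classical SREBP2 target, Sc5d as a gene lower in HFD liver and Soat1 as the gene with the widest difference in eWAT. They lie at chr13:120151732-120151914 (plus strand, Hmgcs1), chr15:59186632-59186868 (plus strand, Sqle), chr9:42175606-42175855 (minus strand, Sc5d) and chr1:156301902-156302151 (minus strand, Soat1). Each runs 5′ to 3′ on the strand of its gene within these 250 bases, leaving out any base inside a protein-coding exon, and capitals mark TCACNCCAC, CCAAT or its reverse complement ATTGG.
Hmgcs1: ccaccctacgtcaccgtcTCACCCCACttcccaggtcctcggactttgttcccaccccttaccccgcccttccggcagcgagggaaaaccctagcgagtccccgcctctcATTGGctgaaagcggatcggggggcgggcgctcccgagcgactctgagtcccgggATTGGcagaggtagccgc
Sqle: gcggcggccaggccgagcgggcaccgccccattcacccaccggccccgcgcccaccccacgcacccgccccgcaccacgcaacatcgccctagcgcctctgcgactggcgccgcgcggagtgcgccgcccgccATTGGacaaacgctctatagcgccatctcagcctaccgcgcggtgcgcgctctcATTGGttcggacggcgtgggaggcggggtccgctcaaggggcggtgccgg
Sc5d: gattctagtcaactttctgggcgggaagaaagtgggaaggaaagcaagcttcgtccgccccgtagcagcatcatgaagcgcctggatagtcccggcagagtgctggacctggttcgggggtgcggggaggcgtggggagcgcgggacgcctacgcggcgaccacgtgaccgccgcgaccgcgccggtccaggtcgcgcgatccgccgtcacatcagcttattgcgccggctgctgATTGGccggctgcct
Soat1: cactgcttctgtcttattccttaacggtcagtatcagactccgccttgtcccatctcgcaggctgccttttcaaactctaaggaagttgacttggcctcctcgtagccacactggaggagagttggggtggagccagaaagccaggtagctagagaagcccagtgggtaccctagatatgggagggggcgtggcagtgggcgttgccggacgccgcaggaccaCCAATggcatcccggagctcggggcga

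The levels of the 28 genes across tissues were compared first, in the 6 FED-CTRL mice. In these mice 22 of the 28 had their highest median level in liver, 3 in pituitary and 3 in eWAT, on the RPKM scale (CPM divided by transcript length, so that levels of different genes can be set side by side). The highest in liver was Ebp, a sterol isomerase, with a lowest, median and highest mouse at 184, 199 and 232 RPKM. Insig1, which retains SREBP2, followed with 73.9, 182 and 318 RPKM, and the sterol reductase gene Tm7sf2 with 124, 137 and 184 RPKM. The ranges of these 3 genes in liver overlapped those of their neighbours in the order. Hmgcs1, which makes HMG-CoA, had medians of 72.2 RPKM in liver, 46.9 in eWAT and 3.61 in pituitary. Liver RNA was extracted by another protocol than RNA of eWAT and pituitary. Tissue and extraction therefore cannot be told apart wherever liver is compared with either.

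Between tissues a gene was called at an adjusted p under 0.05 (edgeR quasi-likelihood test, Benjamini-Hochberg over 17255 genes) and an absolute log2 fold change of at least 1. Against eWAT, 19 of 28 genes were higher in liver (19.7% of all genes) and 3 were lower (28.9%), with a median log2 fold change of 1.87 (−0.10 over all genes). Against pituitary, 19 were higher in liver (27.6%) and 4 lower (33.8%), with a median of 2.29 (−0.13 over all genes). Tm7sf2 differed the most from eWAT, by 4.79 on the log2 scale (SE 0.17, adjusted p = 1.2e-17). It shares 10.8% of its exon bases with Vps51 on the same strand, and the part of shared reads was not tested. Sc5d, the lathosterol oxidase gene, differed the most from pituitary, by 6.10 (SE 0.17, adjusted p = 1.9e-19). Its lowest, median and highest values were 76.5, 117 and 157 RPKM in liver and 1.24, 1.76 and 2.08 RPKM in pituitary, so every liver library lay above every pituitary library.

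None of the genes called lower in liver belonged to the mevalonate or sterol steps. Mylip, a ubiquitin ligase that degrades lipoprotein receptors, was lower than in eWAT (−1.77, SE 0.19) and in pituitary (−1.31, SE 0.19). Soat1, which esterifies cholesterol, had medians of 1.12 RPKM in liver, 2.32 in eWAT and 5.25 in pituitary, and was called lower in liver against both tissues. Ggps1, which makes the geranylgeranyl lipid, was lower than in eWAT (−1.24, SE 0.14). Mbtps1 (site-1 protease) and Srebf2 were lower in liver than in pituitary, by −1.69 (SE 0.09) and −1.09 (SE 0.14). Srebf2 medians were 35.5 RPKM in pituitary, 16.5 in liver and 9.56 in eWAT, so that the gene of the transcription factor and the genes of the enzymes were highest in different tissues. Between pituitary and eWAT, 7 genes were higher in pituitary (27.6%) and 7 lower (26.6%), Hmgcs1 (−3.36, SE 0.32) and Sc5d (−3.90, SE 0.16) being the lowest.

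**Figure D1:**
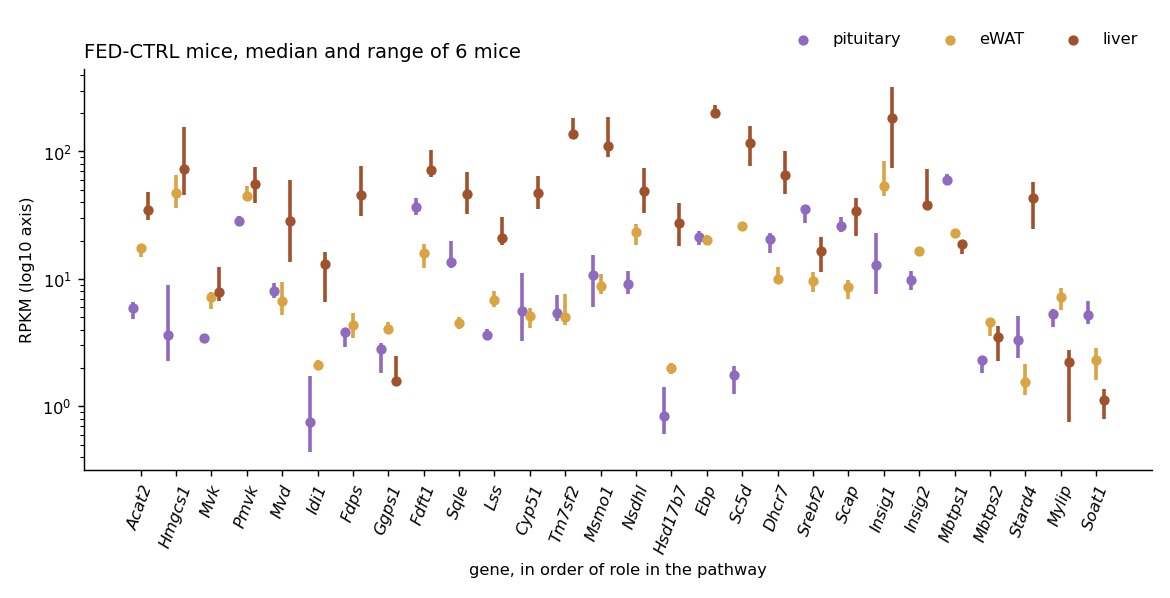
Level of each of the 28 genes in the FED-CTRL mice, as RPKM on a log10 axis, by tissue; points are medians and bars span the lowest to the highest of 6 mice. The liver points lie above those of both other tissues for 22 genes, and for Soat1, Mylip, Ggps1 and Mbtps1 they lie below both.

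In liver, HFD lowered Stard4, Sc5d and Acat2 when the diet effect was averaged over the maternal groups. Within a tissue a gene was called at an adjusted p under 0.05 with no minimum fold. These 3 of 28 genes were called lower and none higher, against 1.74% of the 13787 genes tested in either direction and 1.1% called lower. Beyond the calls, 25 of the 28 estimates were below 0, with a median of −0.32 (−0.01 over all genes). An unadjusted p under 0.05 was reached by 12 of 28, all lower, against 13.2% of all genes.

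Stard4 encodes a protein that carries cholesterol between membranes. Its lowest, median and highest levels in liver were 93.6, 166 and 231 CPM in FED-CTRL, 89.1, 93.4 and 115 in FED-HFD, 130, 179 and 267 in CR20-CTRL and 73.9, 108 and 143 in CR20-HFD. All 12 HFD mice were below the CTRL mean, and each HFD group overlapped the CTRL group from the same dams. The averaged log2 fold change was −0.79 (SE 0.14, adjusted p = 0.0025), which is 0.578 times the CTRL level. The call was made in each of the 24 fits that left out 1 mouse.

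Sc5d, whose enzyme acts shortly before the end of the pathway, was at 267, 418 and 544 CPM in FED-CTRL, 193, 241 and 417 in FED-HFD, 248, 515 and 651 in CR20-CTRL and 186, 263 and 351 in CR20-HFD. Again all 12 HFD mice were below the CTRL mean, with overlap between the groups. The log2 fold change was −0.76 (SE 0.17, adjusted p = 0.016), and it was called in 24 of 24 fits without 1 mouse. Acat2, the cytosolic thiolase at the start of the pathway, was at 58.1, 68.1 and 92.2 CPM in FED-CTRL, 33.9, 47.3 and 64.4 in FED-HFD, 42.4, 68.2 and 82.9 in CR20-CTRL and 27.9, 42.0 and 56.9 in CR20-HFD. Its 12 HFD mice were below the CTRL mean as well, and the log2 fold change was −0.57 (SE 0.14, adjusted p = 0.030). Its call was the least firm of the 3 and was made in 14 of 24 fits that left out 1 mouse, the highest adjusted p being 0.068, without FED-CTRL mouse 24. Acat2 shares 5.48% of its exon bases with Tcp1 on the opposite strand.

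Grouped by role, the estimates of the averaged diet effect in liver differed. All 7 genes of the mevalonate steps were below 0 (median −0.57) and so were all 11 of the squalene and sterol steps (median −0.36), while 5 of 6 genes around SREBP2 were below 0 (median −0.11) and 1 of 3 in sterol handling. Besides Acat2, the mevalonate genes were Fdps, which makes farnesyl diphosphate (−0.83, SE 0.26, adjusted p = 0.071), the diphosphomevalonate decarboxylase gene Mvd (−0.74), the isomerase gene Idi1 (−0.61), the phosphomevalonate kinase gene Pmvk (−0.57), Hmgcs1 (−0.21) and the mevalonate kinase gene Mvk (−0.10). None of these 6 passed the test. Fdps was at 29.3, 44.6 and 71.5 CPM in FED-CTRL, 12.5, 22.5 and 35.1 in FED-HFD, 20.3, 40.1 and 53.2 in CR20-CTRL and 11.7, 18.9 and 45.6 in CR20-HFD, and the groups overlapped.

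Among the sterol steps, Tm7sf2 was nearest to the threshold without passing it (−0.50, adjusted p = 0.060), followed by the ketosteroid reductase gene Hsd17b7 (−0.41, adjusted p = 0.14) and the lanosterol synthase gene Lss (−0.55, adjusted p = 0.17). The squalene epoxidase gene Sqle (−0.45), the lanosterol demethylase gene Cyp51 (−0.36), Dhcr7, whose product completes cholesterol (−0.35), and the squalene synthase gene Fdft1 (−0.29) did not pass either. Nor did the sterol dehydrogenase gene Nsdhl, Ebp, and the methylsterol oxidase gene Msmo1 (−0.04). Insig1 had the largest estimate of all 28 (−1.12, SE 0.34, adjusted p = 0.075). It was at 146, 358 and 660 CPM in FED-CTRL, 101, 130 and 302 in FED-HFD, 104, 401 and 640 in CR20-CTRL and 86.0, 179 and 328 in CR20-HFD, so mice of 1 group differed several-fold and all groups overlapped. Srebf2 (0.08), Insig2 (−0.05), Scap (−0.20), Mbtps1 (−0.04), Mbtps2 (−0.18), Mylip (0.00), Soat1 (0.27) and Ggps1 (−0.02) gave no call.

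**Figure D2:**
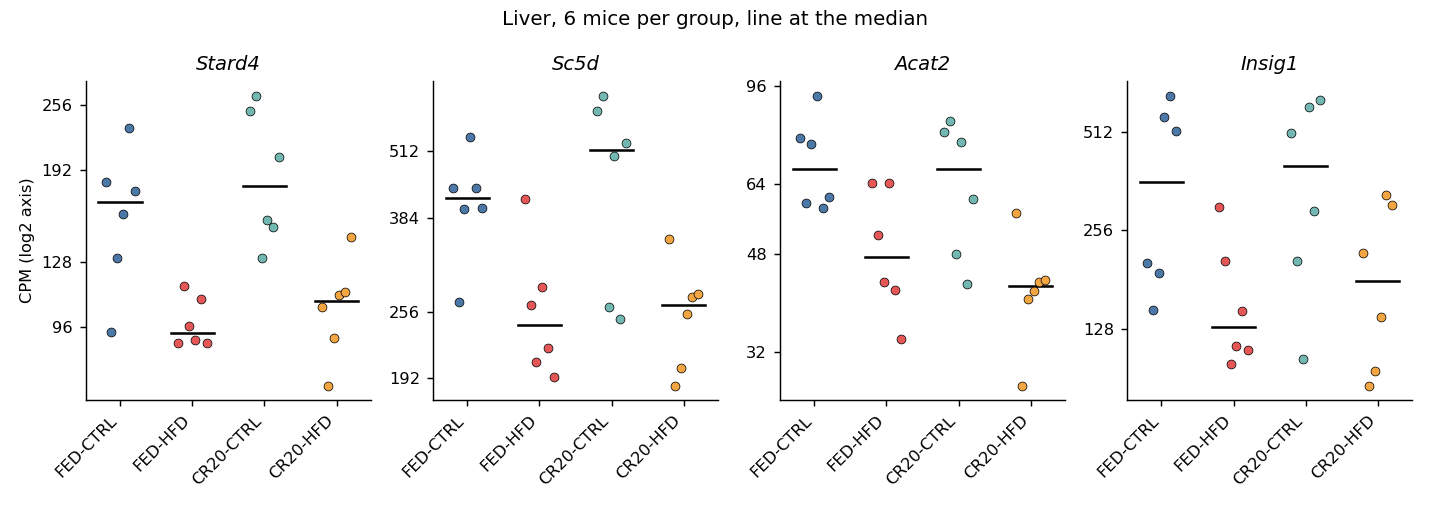
Levels of Stard4, Sc5d, Acat2 and Insig1 in each liver, as CPM on log2 axes that differ between panels; each point is 1 mouse and each line the median of 6 mice. The HFD groups sit lower than their CTRL groups from the same dams for all 4 genes, and each overlaps that group.

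The same direction was seen within each maternal group, with fewer calls. In FED-HFD against FED-CTRL livers, 25 of 28 estimates were below 0 (median −0.34), and 0 were called with edgeR, limma voom or DESeq2 (0.109% of all genes with edgeR), while 6 had an unadjusted p under 0.05, all lower (6.66% of all genes). In CR20-HFD against CR20-CTRL livers, 23 of 28 were below 0 (median −0.34) and 1 was called (0.515%), with 7 at an unadjusted p under 0.05, all lower (9.57%). The called gene was Stard4 (−0.86, SE 0.20, adjusted p = 0.046, exact permutation p = 0.0043 with n = 6 per group). That call was made in 3 of 12 fits without 1 mouse, with log2 fold changes from −0.96 to −0.74. The difference between the 2 diet effects was tested as an interaction and 0 of the 28 were called by edgeR, limma voom or DESeq2, 0 also having an unadjusted p under 0.05, against 0% and 1.76% of all genes. The maternal diet alone gave 0 calls among the 28 in liver with edgeR, limma voom or DESeq2; averaged over diets, 3 had an unadjusted p under 0.05 (4% of all genes), namely Msmo1 (−0.47), Insig2 (0.49) and Mvk (−0.32).

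The HFD liver libraries were shallower, with median totals of 13463662 in FED-HFD and 13194155 in CR20-HFD against 17987921 in FED-CTRL and 16017852 in CR20-CTRL. The part of depth in the result was not tested. The animal numbers fall into 3 ranges, whose meaning the labels do not give, and the diet estimate was below 0 for 22 of 28 genes under 20, 23 between 20 and 39 and 26 from 40 upwards, with medians of −0.30, −0.39 and −0.30. With the range as a covariate, Stard4, Sc5d and Acat2 were still called.

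The neighbouring lipid pathways in the same livers moved as follows. All 11 genes of fatty acid synthesis and its SREBP1 targets were called lower under HFD in the averaged comparison, with a median log2 fold change of −1.67, Scd1 (stearoyl-CoA desaturase) having the largest (−4.66). Of 10 other sterol synthesis genes and SREBP2 targets, 2 were called lower (median −0.41), among them Acss2, a cytosolic acetyl-CoA synthetase (−1.16, adjusted p = 0.0059). Of 13 genes for sterol efflux, oxysterol receptors and cholesterol esters, 0 were called with edgeR (median 0.23).

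**Figure D3:**
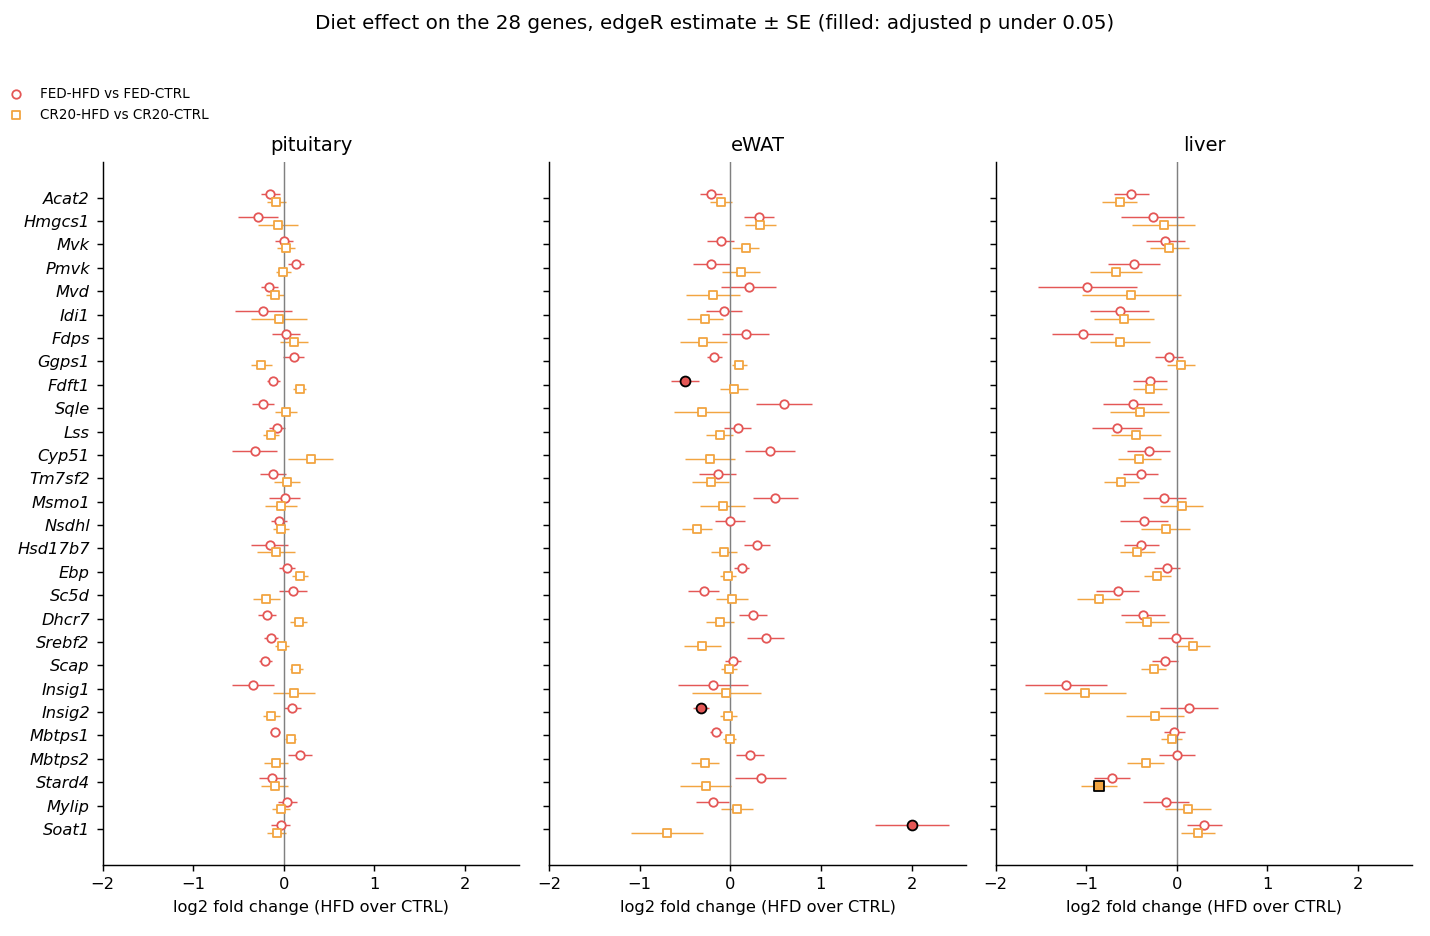
Diet effect on each of the 28 genes by tissue, as the edgeR log2 fold change of HFD over CTRL with its SE, for mice of FED dams (circles) and CR20 dams (squares); filled symbols mark an adjusted p under 0.05. In liver, 25 and 23 of the 28 estimates lie below 0, in eWAT the filled symbols are Soat1, Insig2 and Fdft1 in mice of FED dams, and no symbol is filled in pituitary.

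In eWAT, HFD raised Soat1 and lowered Insig2 and Fdft1 in the mice of FED dams, and Soat1 was much lower again in the HFD-fed mice of CR20 dams. The 3 called genes in FED-HFD against FED-CTRL (1 higher and 2 lower) compare with 10.5% of 15964 genes called (7.81% higher and 2.71% lower), so the share of the 28 was close to the background. An unadjusted p under 0.05 was reached by 4 of 28 (25.7% of all genes). Their median log2 fold change was 0.05 (0.00 over all genes).

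Soat1 encodes the enzyme that turns free cholesterol into cholesteryl ester, abundant in macrophages. In eWAT it was at 16.7, 24.2 and 30.1 CPM in FED-CTRL, 44.1, 69.9 and 250 in FED-HFD, 11.2, 32.2 and 66.5 in CR20-CTRL and 15.1, 19.6 and 22.5 in CR20-HFD. Every FED-HFD mouse was above every FED-CTRL and every CR20-HFD mouse, mouse 23 being the highest. FED-HFD was 4.01-fold above FED-CTRL (log2 fold change 2.01, SE 0.40, adjusted p = 0.0038, exact permutation p = 0.0022 with n = 6 per group, the smallest this design gives). CR20-HFD was below FED-HFD by −2.31 (SE 0.41, adjusted p = 0.00095, exact permutation p = 0.0022 with n = 6 per group).

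The diet effect on Soat1 in CR20 mice minus that in FED mice was −2.70 (SE 0.57, adjusted p = 0.032, against 2.29% of all genes called), although this call was made in 10 of 24 fits without 1 mouse. Averaged over diets, CR20 was below FED by −0.96 (SE 0.28, adjusted p = 0.041, against 6.68% of all genes), called in 8 of 24 such fits (2.8% of all genes were called higher and 3.88% lower). This average covers estimates of opposite direction, 0.39 for CR20-CTRL against FED-CTRL (not called) and −2.31 for CR20-HFD against FED-HFD. The 2 pairwise calls of Soat1 were made in all 12 fits each, and the smallest differences, 1.45 and −1.75, were those without FED-HFD mouse 23. Within the animal number ranges the difference of FED-HFD from FED-CTRL was 1.39 under 20 (4 mice against 3), 3.05 between 20 and 39 (1 against 1) and 1.31 from 40 upwards (1 against 2), and that of CR20-HFD from FED-HFD was −1.63, −3.94 and −1.19.

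Macrophage markers moved with Soat1. The 12 markers summed to 925–1417 CPM in FED-CTRL, 2220–13208 in FED-HFD, 634–1625 in CR20-CTRL and 657–1335 in CR20-HFD, mouse 23 holding the highest sum, and none was at 0. Of these markers 9 were called higher in FED-HFD against FED-CTRL (median log2 fold change 1.90) and 10 lower in CR20-HFD against FED-HFD (median −2.16). Their part in the Soat1 result was not tested. Some hepatocyte markers in eWAT were called in these comparisons too. Of the 4 tested, 2 were higher in FED-HFD against FED-CTRL, and 2 were lower and 1 higher in CR20-HFD against FED-HFD. The 6 listed hepatocyte markers summed to 3.53–804 CPM in FED-HFD, with the highest in mouse 10, against 61.3–259 in FED-CTRL, 121–945 in CR20-CTRL and 88.5–982 in CR20-HFD. The median sum was lower in FED-HFD (59.6 CPM) than in FED-CTRL (161 CPM), CR20-CTRL (428 CPM) and CR20-HFD (173 CPM). None of the 6 markers was at 0 in a group, and their part was not tested either. Without FED-HFD mouse 10, Soat1 was called at 2.15 and −2.46. In a fit chosen after the values were seen, which left out FED-HFD mouse 23 and CR20-CTRL mouse 5, Soat1 was still called, at 1.45 (adjusted p = 0.0027) and −1.76 (adjusted p = 0.00039).

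The other called genes in eWAT changed less. Insig2, an endoplasmic reticulum protein that retains SREBP2, was at 53.8, 57.3 and 59.6 CPM in FED-CTRL, 35.4, 44.7 and 52.3 in FED-HFD, 43.6, 58.2 and 63.8 in CR20-CTRL and 50.5, 53.2 and 59.1 in CR20-HFD. All FED-HFD mice were below all FED-CTRL mice (log2 fold change −0.32, SE 0.09, adjusted p = 0.027, exact permutation p = 0.0022 with n = 6 per group). The call was made in 6 of 12 fits without 1 mouse, the highest adjusted p being 0.093, without FED-HFD mouse 23.

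Fdft1 was at 53.6, 69.2 and 82.8 CPM in FED-CTRL, 38.9, 49.9 and 56.9 in FED-HFD, 40.5, 73.1 and 91.9 in CR20-CTRL and 64.4, 68.0 and 94.1 in CR20-HFD. Every CR20-HFD mouse was above every FED-HFD mouse, whereas FED-CTRL and FED-HFD overlapped. The log2 fold change was −0.50 in FED-HFD against FED-CTRL (SE 0.16, adjusted p = 0.042) and 0.59 in CR20-HFD against FED-HFD (SE 0.16, adjusted p = 0.014), and the calls were made in 4 and 12 of 12 fits without 1 mouse. Fdft1 shares 24.8% of its exon bases with Ctsb on the opposite strand, and whether the counting used the strand is not given in the sources used here. Ctsb, a lysosomal protease gene abundant in macrophages, changed the other way (0.72, adjusted p = 0.0084, and −0.88, adjusted p = 0.0015), and the part of shared reads was not tested.

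Dhcr7 was at 33.6, 37.2 and 46.3 CPM in FED-CTRL, 33.2, 45.2 and 60.8 in FED-HFD, 26.5, 34.5 and 46.9 in CR20-CTRL and 24.6, 33.5 and 37.0 in CR20-HFD. The last group was called lower than FED-HFD, with overlap (−0.50, SE 0.16, adjusted p = 0.034), in 5 of 12 fits without 1 mouse. Without mouse 23 the estimate was −0.40 (adjusted p = 0.12). Within the animal number ranges it was −0.40 under 20, −1.20 between 20 and 39 and 0.14 from 40 upwards (2 mice against 1), so the direction did not hold in the last. Soat1, Fdft1 and Dhcr7 were the 3 calls in CR20-HFD against FED-HFD, where 14.9% of all genes were called (4.89% higher and 10% lower). In that comparison 9 of 28 had an unadjusted p under 0.05 (29.8% of all genes). In the mice of CR20 dams HFD gave 0 calls with edgeR, limma voom or DESeq2 (0% of all genes with edgeR, and 1 of 28 at an unadjusted p under 0.05 against 6.03%), and CR20-CTRL against FED-CTRL gave 0 as well (0 of 28 at an unadjusted p under 0.05 against 7.39%). Averaged over maternal groups, HFD gave 0 calls with edgeR (0.251% of all genes), DESeq2 or unweighted limma voom. Limma voom with quality weights called 4 of 28 there, and its share of all genes is not given here. With edgeR, 4 of 28 had an unadjusted p under 0.05, against 17.1% of all genes. The remaining 24 genes had no call with edgeR in eWAT in any comparison, Sqle (0.59, SE 0.31, adjusted p = 0.23) and Msmo1 (0.50, SE 0.25, adjusted p = 0.21) having the largest estimates among them for HFD in mice of FED dams.

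Among neighbouring genes in eWAT, 4 of 13 for sterol efflux and cholesterol esters were called higher in FED-HFD against FED-CTRL, namely the lysosomal lipase gene Lipa (2.14), the ester hydrolase gene Nceh1 (2.09), the exporter gene Abcg1 (1.10) and the lysosomal cholesterol transporter gene Npc1 (0.49). The same 4 and Npc2 were called lower in CR20-HFD against FED-HFD. These comparisons share the FED-HFD mice. Of 11 fatty acid synthesis genes, 3 were called lower in FED-HFD (Acaca −1.50, Fasn −1.31 and Elovl6 −1.22), and 0 were called with edgeR in CR20-HFD against FED-HFD. Of 9 other sterol genes and SREBP2 targets, 1 was called higher and 1 lower in FED-HFD against FED-CTRL, the latter being Aacs, a cytosolic acetoacetyl-CoA synthetase (−0.82, adjusted p = 0.038).

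**Figure D4:**
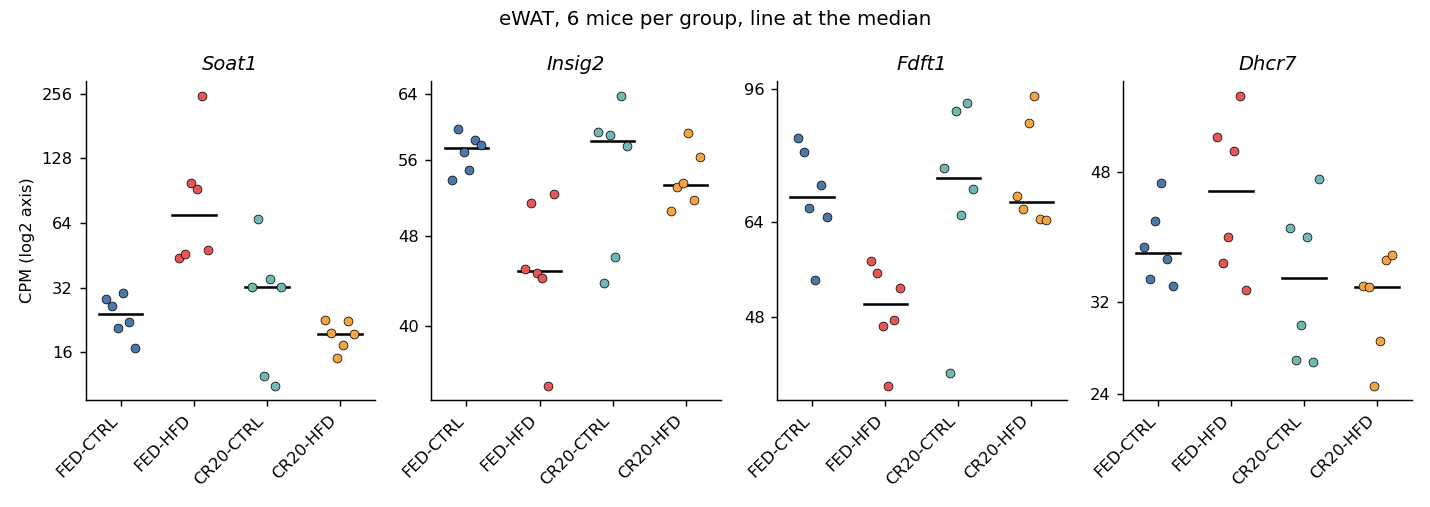
Levels of Soat1, Insig2, Fdft1 and Dhcr7 in each eWAT library, as CPM on log2 axes that differ between panels; each point is 1 mouse and each line the median of 6 mice. For Soat1 the 6 FED-HFD points (44.1–250 CPM) lie above all FED-CTRL and CR20-HFD points, and for Insig2 and Fdft1 the FED-HFD median is the lowest of the 4.

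In pituitary, none of the 28 genes was called in any of the 7 comparisons with edgeR, limma voom or DESeq2, and 0% of 16657 genes were called except for the averaged diet effect (0.024%). At an unadjusted p under 0.05 there was 1 of 28 for HFD in mice of FED dams (9.64% of all genes), 2 in mice of CR20 dams (7.28%), 0 for CR20-HFD against FED-HFD (6.77%) and 7 for CR20-CTRL against FED-CTRL (17.3%). The interaction gave 4 of 28 (11%), with estimates from −0.36 to 0.62 and a smallest edgeR adjusted p of 0.31. Averaged over diets, the maternal effect gave 1 of 28 (13.2%). Averaged over the maternal groups, the diet effect gave 0 of 28 (6.23%). The 4 genes with the smallest unadjusted p follow, with values from pairwise comparisons only. The smallest unadjusted edgeR p in pituitary, 0.0025, was reached in the interaction, whose estimates are not given by gene. Ggps1 was at 10.4, 16.1 and 18.4 CPM in FED-CTRL and 17.0, 20.6 and 22.9 in CR20-CTRL, a difference of 0.36 (SE 0.12, adjusted p = 0.13) with overlapping groups. Scap, the escort of SREBP2, was at 112, 123 and 145 CPM in FED-CTRL and 98.3, 110 and 122 in FED-HFD, a difference of −0.20 (adjusted p = 0.34).

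Dhcr7 was at 53.5, 67.6 and 76.3 CPM in pituitary of FED-CTRL mice and 50.5, 55.6 and 62.8 in CR20-CTRL mice, a difference of −0.25. Fdft1 was at 121, 126 and 135 CPM in CR20-CTRL and 137, 144 and 149 in CR20-HFD. Its groups did not overlap (exact permutation p = 0.0022 with n = 6 per group), yet the difference was only 0.17 on the log2 scale (adjusted p = 0.62). No gene of the neighbouring lists was called in pituitary with edgeR. The largest estimates for HFD among the 28 were −0.34 and 0.30 in mice of FED and CR20 dams.

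The diet effects in 2 tissues of the same mice were then compared directly, with limma on the within-mouse differences, a test chosen after the values were seen. Averaged over maternal groups, the effect in liver minus that in pituitary was below 0 for 23 of 28 genes, and 1 was called (0.619% of all genes), Fdps (−0.96, SE 0.22, adjusted p = 0.039). The effect in liver minus that in eWAT was also below 0 for 23 of 28, with 0 called by limma (0.367% of all genes). The smallest adjusted p was 0.090 for Stard4 (−0.73). The share of all genes below 0 was not computed for either pair, so the counts below 0 have no background. In FED mice the effect on Soat1 in eWAT exceeded that in pituitary by 1.75 (SE 0.40, adjusted p = 0.031, against 2.24% of all genes).

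Whether the genes were high and low in the same mice was examined by correlating each with Hmgcs1 over the 24 mice of a tissue, after the group means were removed. P-values came from 100000 permutations of mice within groups and were adjusted over all genes of the tissue. In liver the median r of the other 27 genes was 0.69 (0.00 over all genes), and 14 of the 27 were among the 28 highest of 13786 genes. The sterol genes Nsdhl (r = 0.89, rho = 0.90), Msmo1 (r = 0.87, rho = 0.86) and Dhcr7 (r = 0.85, rho = 0.83) passed the test, each with a permutation adjusted p of 0.028, as did Pmvk (r = 0.82, rho = 0.84, permutation adjusted p = 0.039). These were 4 of the 6 genes called in the whole table (0.0435%). Without mice 13 and 24, which were farthest from the median of Hmgcs1, r was 0.87, 0.85, 0.81 and 0.80.

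Of the genes called lower under HFD, Acat2 (r = 0.78) and Sc5d (r = 0.70) were also among the 28 highest in liver without passing the test (permutation adjusted p = 0.11 and 0.25), whereas Stard4 had r = 0.21. Srebf2 had r = 0.75 without passing the test (permutation adjusted p = 0.16), while Ebp (r = 0.04) and Ggps1 (r = −0.32) did not follow Hmgcs1. In pituitary, 8 genes were called (5.72% of all genes), the highest being Msmo1 (r = 0.87), Cyp51 (r = 0.86) and Stard4 (r = 0.85), then Idi1, Sqle, Soat1, Insig1 and Sc5d (r = 0.79 to 0.72), each still positive without mice 16 and 42. Scap (r = −0.61) and Tm7sf2 (r = −0.49) went the other way without passing the test, and the median r was 0.36. In eWAT 0 genes were called (0% of all genes), the highest r being 0.50 for Pmvk (permutation adjusted p = 0.57) and the median 0.14. The libraries of a tissue share their normalisation, and the difference between tissues was not tested. Within the animal number ranges under 20 (11 mice) and from 40 upwards (8 mice), r was 0.71–0.88 and 0.84–0.97 for the 4 genes called in liver and 0.52–0.87 and 0.41–0.88 for the 8 called in pituitary. For Pmvk in eWAT it was 0.64 and −0.26, so the direction did not hold. The range from 20 to 39 held 5 mice, too few for r.

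**Figure D5:**
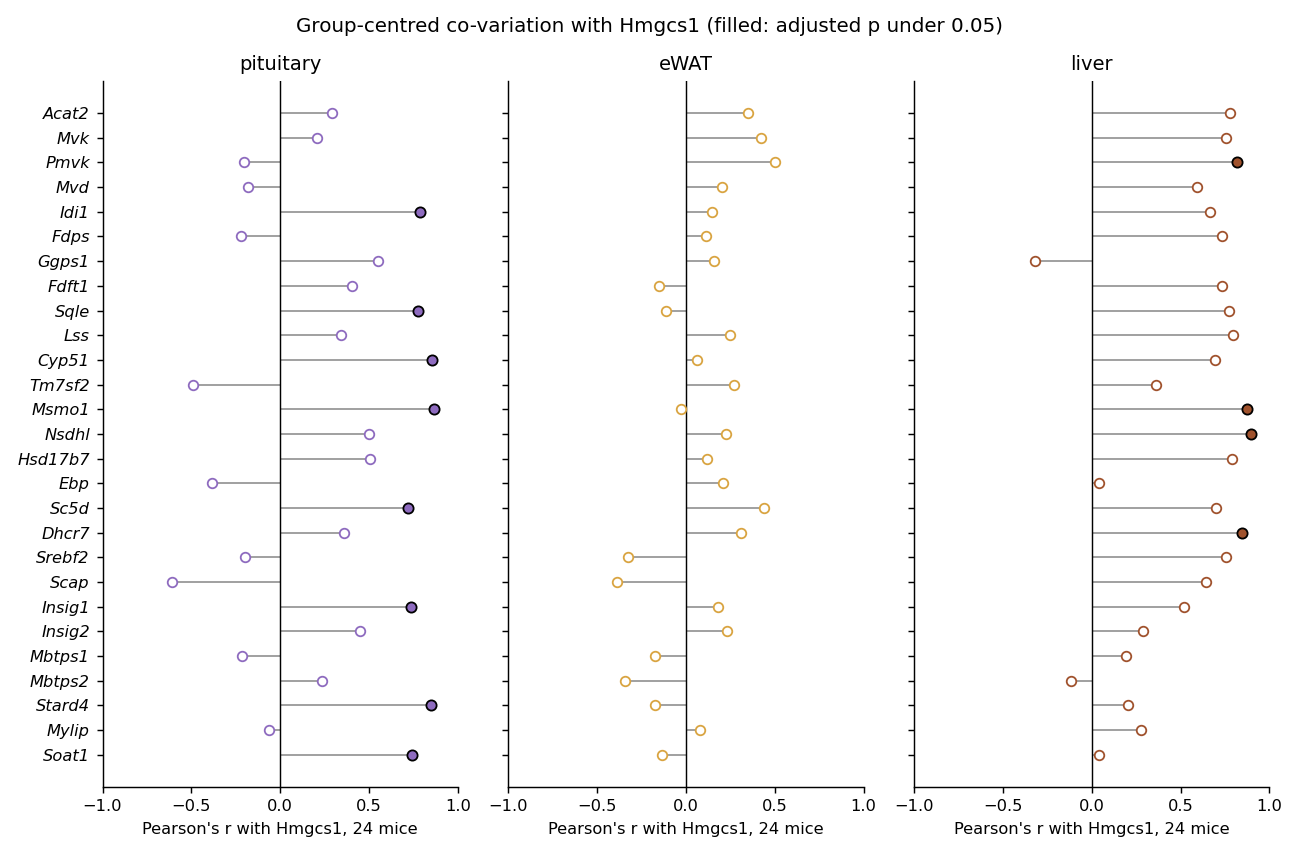
Pearson's r of each gene with Hmgcs1 over 24 mice after removal of the group means, by tissue; filled points mark a permutation adjusted p under 0.05. In liver the filled points are Pmvk, Msmo1, Nsdhl and Dhcr7, in pituitary 8 points are filled, and in eWAT none.

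Finally, the level of each gene was compared between tissues of the same mouse, again after the group means were removed. Of the 28 genes 0 were called for any pair of tissues by the permutation test (0.0469%, 0.564% and 0.188% of all genes for liver and eWAT, liver and pituitary, and eWAT and pituitary). Between liver and eWAT, 9 had an unadjusted p under 0.05, all positive (7.71% of all genes), with a median r of 0.21 and the highest for Lss (r = 0.58, permutation adjusted p = 0.50). Between liver and pituitary the number was 3 (9.23% of all genes), and between eWAT and pituitary 1 (7.51%).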

How the data were processed

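Total RNA of pituitary, eWAT and liver was sequenced by the authors, who trimmed the reads with Trimmomatic, aligned them with STAR to GRCm39 with Ensembl annotation and deposited raw gene counts from Subread featureCounts. Liver RNA was extracted on Zymo columns, and RNA of eWAT and pituitary with RNAzol RT. The sources name both a stranded total RNA and a stranded mRNA kit, and the labels give the diet period as 10 or 16 weeks, of which the study gives the first for these mice. Genes were matched by identifier to GENCODE M39 (54749 of 55416).

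The counts of each tissue (24 libraries) were filtered with filterByExpr, scaled by TMM and tested with edgeR 4.0.16 (R 4.3.3) as quasi-likelihood models on 4 group means, adjusted over all genes. The methods of the study use limma voom with quality weights, which was an alternative here (limma 3.58.1), as was DESeq2 1.42.0. Tissues were compared in the 18 FED-CTRL libraries with their own TMM scaling, so CPM within a tissue and RPKM between tissues are on different scales. RPKM used the length of the canonical transcript. Log2 CPM used a prior count of 2. Single genes were checked by two-sided exact permutation tests over 924 divisions, and correlations by two-sided permutation tests.

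The members and lists were chosen with earlier results of these data known. Values are given for genes called in a tissue, or for the 4 with the smallest unadjusted p where none was, and at most 4 genes per neighbouring list are named. Fdps and Insig1 in liver were named after their values were seen. In counts simulated for CR20-HFD against FED-HFD, 100 genes were changed by an absolute log2 fold change of 1 and another 100 by 2. The fit recovered 80, 63 and 59 of the former in pituitary, eWAT and liver, and 95, 86 and 85 of the latter. Changes smaller than 1 were not simulated. Whether a pairing by mouse exists was checked over genes: the median correlation of same-mouse deviations was 0.04–0.07 between tissues. The 3 libraries of a mouse come from 1 animal, and the fit with the mouse as a block is given with the alternatives. Whether mice of a group share a litter is not stated, so p-values measure the spread between these mice. For CR20 against FED they do not measure the spread between dams, which received the restriction. The study states that the pups of every dam were blindly allotted to CTRL or HFD, so littermates may be in both diet groups. The diet tests could not use such a pairing, because no label gives the litter.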

Additional observations from a re-analysis of the deposited data

Results flagged for a closer look

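In the pituitary, Ggps1 was at 10.4 CPM in FED-CTRL mouse 16 against 15.3–18.4 CPM in the other mice of its group, and at 13.4 CPM in FED-HFD mouse 10 against 17.3–18.3 CPM in the others. Both were marked because 1 mouse stood apart from its group by Dixon's criterion, and 44 groups were examined, of which chance marks about 1 in 20.

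Differences between conditions that were themselves tested were marked as well. The diet effect on Soat1 in eWAT was −2.70 lower on the log2 scale in mice of CR20 dams than in mice of FED dams (edgeR adjusted p = 0.032). The diet effect on Fdps in liver minus that in pituitary was −0.96 (limma adjusted p = 0.039), and the diet effect on Soat1 in eWAT minus that in pituitary was 1.75 in mice of FED dams (limma adjusted p = 0.031). Macrophage markers moved with Soat1 in eWAT, and their part in these differences was not tested.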

How the results depend on the processing

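No estimate among the genes called in a main comparison changed direction under any alternative or without any 1 mouse. The number of the 28 genes called moved by over 1.5 times as follows, and the cause was not tested. The share of all genes called is not given for an alternative or for a fit without 1 mouse, so these counts have no background. In eWAT, FED-HFD against FED-CTRL gave 3 genes and 1 with no filter on low counts and 1 at the study's threshold (adjusted p at most 0.055 and absolute log2 fold change at least 0.58). CR20-HFD against FED-HFD gave 3 and 5 with limma voom and quality weights (3 higher, 2 lower). The averaged diet effect gave 0 and 4 with quality weights. The averaged maternal effect gave 1, and 3 with quality weights, 0 with voom without weights, 3 with DESeq2, 0 with the animal number range added to the model and 3 without the 2 libraries lowest in adipocyte markers, an alternative chosen after seeing the data. The interaction gave 1 and 0 with voom without weights. In liver, CR20-HFD against CR20-CTRL gave 1, and 0 with voom with or without weights, 2 with DESeq2, 0 with the range covariate and 0 with only the 2 groups compared. The averaged diet effect gave 3, and 5 with quality weights and 6 with DESeq2.

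Leaving out 1 mouse gave 1–3 genes for FED-HFD against FED-CTRL in eWAT, 2–5 for CR20-HFD against FED-HFD, 0–3 for the averaged maternal effect and 0–1 for the interaction, and in liver 0–2 for CR20-HFD against CR20-CTRL and 2–6 for the averaged diet effect. Of the single genes, Soat1 in both pairwise comparisons and Fdft1 in CR20-HFD against FED-HFD were called in 9 of 9 alternatives, Insig2 in 8 of 9, Fdft1 in FED-HFD against FED-CTRL in 7 of 9 and Dhcr7 in 5 of 9. Stard4, Sc5d and Acat2 were called for the averaged diet effect in liver in 7 of 7, and Stard4 in CR20 livers in 4 of 8. The FED-HFD against FED-CTRL call of Insig2 was lost without FED-HFD mouse 12, 13 or 23 or FED-CTRL mouse 15, 41 or 42. DESeq2 size factors shifted the median of all genes by at most 0.01 on the log2 scale.

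Between tissues, the mouse as a replicate block gave 22, 23 and 14 genes for liver against eWAT, liver against pituitary and pituitary against eWAT, the same counts as without the block. Within a tissue no block was possible, because each mouse belongs to 1 group. The lowest count of any of the 28 genes in a library was 23 in pituitary (Idi1), 51 in eWAT (Fdps) and 23 in liver (Mylip).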
